A study of Mus musculus with 36 samples.

Results

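In mouse embryonic stem cells, 742 places in the genome carried an MBD3 peak on each of 4 days and lay on a CTCF peak of at least 1 of those days. They were found by joining the 4 MBD3 peak lists wherever peaks overlapped by 1 bp, which gave 18378 merged MBD3 sites on chromosomes 1 to 19, X and Y. Of these, 901 (4.90%) had a peak on every day, and the 742 among them that overlapped CTCF are 4.04% of all merged MBD3 sites. The same 742 places cover 741 of 53682 merged CTCF sites, or 1.38%. The sites were chosen by the presence of MBD3 peaks on all 4 days and by their overlap with CTCF, so their folds, their ranks and the presence of CTCF are given as descriptions, with no test.

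CTCF is a zinc finger protein that recognises a long DNA motif and stops the cohesin ring as it extrudes chromatin loops, which places CTCF at loop anchors, insulators and domain borders. MBD3 is a subunit of NuRD, a complex that joins a nucleosome remodelling ATPase to histone deacetylases and tunes gene activity as stem cells leave the pluripotent state. MBD3 is named for a methyl-CpG binding domain, but in mammals it binds methylated DNA weakly, unlike its relative MBD2. In these cells NuRD is known mainly from promoters and enhancers.

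The 36 samples form 12 groups of 3: chromatin precipitated with an antibody to CTCF, chromatin precipitated with an antibody to MBD3, and input chromatin, each on days 0, 2, 4 and 6. The names of the peak lists call the cells WT, and the labels name no strain or agent for any group and do not say what happened to the cells between days. All groups share culture with serum replacement and leukaemia inhibitory factor, which holds such cells in the pluripotent state, on irradiated fibroblast feeders. Whether the cells of days 2, 4 and 6 were still pluripotent cannot be read from the peak lists. Feeder cells may add chromatin to every sample, and the peak lists give no marker by which to measure it. The authors called peaks once for each antibody and day on the 3 replicates together, so there is no spread between replicates, and values of different days or classes of site stand side by side without a p-value. Intervals in parentheses after a share are exact (Clopper-Pearson) 95% binomial intervals and cover counting error only.

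The fold of a peak is the authors' ratio of fragments over the summit to the number that the peak caller expected there. The summit is the highest point of the peak. A fragment is added to both numbers before the ratio is taken, which lowers folds most where the expected number is small. That expected number is called the background here. It was recovered for each peak from the deposited fold and p, along with the whole number of fragments. Each list has a lowest common background, its level, which follows the amount of sequence behind the list. For the MBD3 lists of days 0, 2, 4 and 6 the level was 1.51, 2.18, 1.93 and 1.41 fragments, and for the CTCF lists 2.87, 2.67, 1.83 and 1.87. A background over 10 times the level is called high. Folds of different days depend on the depth and background of each list. The MBD3 list of day 2, with 1991 peaks, was the shortest of the 4 and decided which sites could be counted.

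Some of these sites lie on promoters, and the sequences of 4 of them are printed first. They are the 4 sites that kept the highest ranks in the MBD3 lists among those on a RefSeq promoter window with a motif match that lies inside the site. The condition that the match lies inside the site was not in the planned rule, so closeness to the summits is partly built in. Without it Gm46266 would come before Adprhl2, with a match 399.5 bp from the MBD3 summit. Each line gives the 250 bases before the annotated start, 5′ to 3′ on the strand of the gene, from RefSeq on GRCm38.p6, the assembly of mm10. Capitals mark a match, on either strand, to the core of the CTCF motif, written here as CC, any 3 bases, AGG, any base and GGC.
Rapgef1, chr2:29619470-29619719, plus strand: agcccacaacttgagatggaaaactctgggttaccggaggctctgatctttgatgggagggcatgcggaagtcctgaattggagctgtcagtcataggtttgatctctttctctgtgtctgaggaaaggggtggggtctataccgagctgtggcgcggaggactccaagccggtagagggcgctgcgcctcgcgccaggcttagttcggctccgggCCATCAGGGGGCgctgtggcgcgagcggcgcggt
Nipsnap2, chr5:129724825-129725074, plus strand: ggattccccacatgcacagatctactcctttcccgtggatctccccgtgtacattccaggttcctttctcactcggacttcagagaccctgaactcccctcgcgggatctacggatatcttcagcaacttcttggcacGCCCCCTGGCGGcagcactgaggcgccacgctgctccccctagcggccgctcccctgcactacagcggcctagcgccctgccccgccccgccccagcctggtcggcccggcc
Vps36, chr8:22192583-22192832, plus strand: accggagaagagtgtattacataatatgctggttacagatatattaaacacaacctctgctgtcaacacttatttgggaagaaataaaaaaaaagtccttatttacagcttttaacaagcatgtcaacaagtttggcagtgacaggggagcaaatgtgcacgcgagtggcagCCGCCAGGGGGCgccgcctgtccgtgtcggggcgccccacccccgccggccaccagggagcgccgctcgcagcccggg
Adprhl2, chr4:126321704-126321953, minus strand: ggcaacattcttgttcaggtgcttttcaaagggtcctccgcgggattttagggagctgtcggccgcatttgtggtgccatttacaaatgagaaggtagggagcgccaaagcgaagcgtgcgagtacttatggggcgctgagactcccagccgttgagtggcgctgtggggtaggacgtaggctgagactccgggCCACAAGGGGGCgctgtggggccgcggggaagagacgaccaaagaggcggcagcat
Rapgef1 encodes a guanine nucleotide exchange factor, Nipsnap2 a mitochondrial protein, Vps36 a subunit of the ESCRT-II sorting complex and Adprhl2 an ADP-ribosylhydrolase.

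At the Rapgef1 promoter the MBD3 folds were 29.8, 11.6, 19.8 and 23.6 on days 0, 2, 4 and 6, and the CTCF folds were 42.9, 22.7, 35.4 and 33.2. Both proteins were at their lowest there on day 2 and highest on day 0. The summits of the 2 proteins lay 5, 3, 1 and 9 bp apart on those days, with 276, 193, 337 and 317 MBD3 fragments over the summit. The whole RefSeq window of this promoter, which runs 50 bases past the start, holds a second match after the stretch that is printed. The printed match lay a median of 22.0 bp from the MBD3 summit and 26.0 bp from the CTCF summit over the days, and the second lay 62.0 bp from the MBD3 summit. At Nipsnap2, Vps36 and Adprhl2 the match lay 29.0, 48.0 and 15.0 bp from the MBD3 summit and 31.5, 50.5 and 9.00 bp from the CTCF summit.

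The other 3 promoters had the same order of days at their low end. At Nipsnap2 the MBD3 folds were 28.6, 8.92, 19.4 and 24.7, with summits 12, 4, 2 and 3 bp from those of CTCF. At Vps36 they were 21.5, 6.90, 17.4 and 14.4, and at Adprhl2 16.1, 5.31, 9.33 and 10.7. Day 2 was the lowest and day 0 the highest day at all 3. The background was high on 4, 3 and 4 days at Nipsnap2, Vps36 and Adprhl2, and on 0 days at Rapgef1.

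MBD3 stood higher at these 742 sites than over its lists as a whole on 3 of the 4 days. On days 0, 2, 4 and 6 the median MBD3 fold was 8.07 (range 1.44 to 32.3), 4.17 (1.31 to 32.1), 7.21 (1.32 to 29.5) and 8.39 (1.36 to 37.7). Over the whole MBD3 lists the medians were 4.07, 4.29, 3.85 and 4.58, so on day 2 the sites were no higher than their list. Within the lists, the median site ranked at the 94.9th, 47.7th, 92.6th and 92.9th percentile of MBD3 fold. Each site holds a peak of every list, and the lists have 10464, 1991, 9006 and 10875 peaks. The sites thus make up a much larger part of the day 2 list, whose median and percentile set them partly against themselves.

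Day 2 was the low point for MBD3 at most of the sites. At 621 of 742 sites (83.7%) the lowest MBD3 fold was that of day 2, while days 0, 4 and 6 were the lowest at 46, 47 and 28 sites. The highest fold was that of day 6 at 317 sites, followed by day 0 with 263, day 4 with 135 and day 2 with 27. CTCF followed the same order of days: of the 702 sites with CTCF on every day, 623 (88.7%) had their lowest CTCF fold on day 2 and 5 their highest. The low CTCF fold of day 2 was not particular to these sites. CTCF sites of all 4 days that never had MBD3 had medians of 7.76, 5.09, 8.44 and 8.86. At MBD3 sites of 3 days at CTCF the CTCF medians were 13.9, 6.71, 13.7 and 14.7. Scaling the fragments over the summit by the level of each list, which leaves the local background out, gave MBD3 medians of 54.3, 31.7, 52.8 and 67.4 times the level. On that scale day 2 was the lowest at 663 of 742 sites for MBD3 and at 674 of 702 for CTCF.

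**Figure D1:**
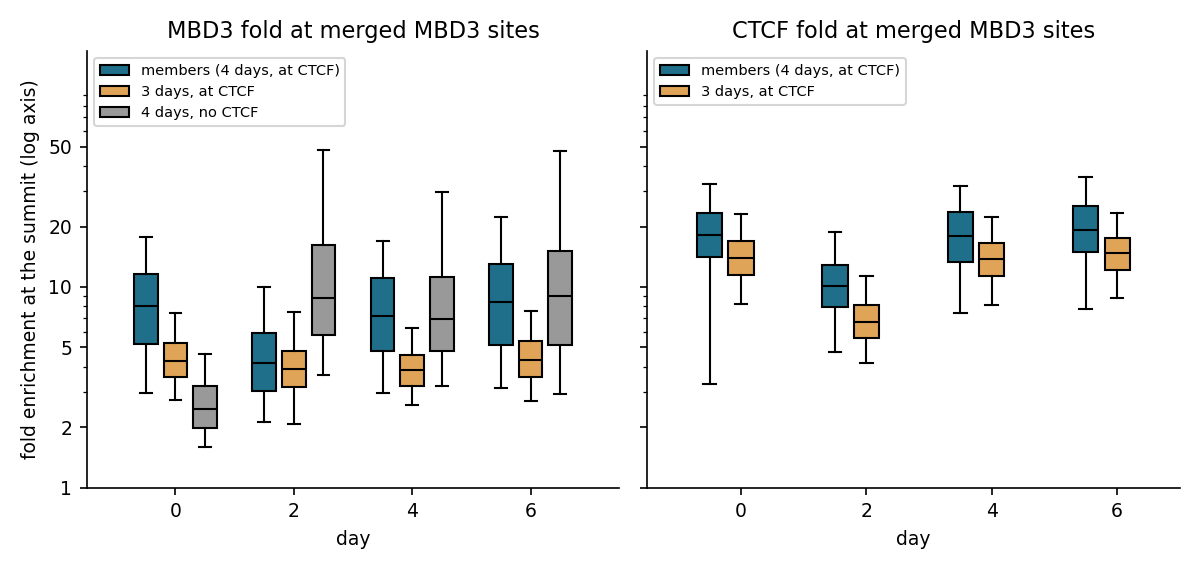
Fold enrichment at the summit (log axis) of MBD3 (left) and CTCF (right) on days 0, 2, 4 and 6 at merged MBD3 sites. Boxes show the quartiles and the median and whiskers the 5th to 95th percentiles. The 742 sites (MBD3 on 4 days at CTCF) stand above the 3154 of 3 days at CTCF, except for MBD3 on day 2. There the medians are 4.17 and 3.90, the latter over the 114 of those sites with a day 2 peak. The 159 sites of 4 days without CTCF have no CTCF box, and have a low MBD3 fold on day 0 and a high one later.

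The sites just outside the rule were mostly those that lacked only day 2. Of 3154 merged MBD3 sites with peaks on 3 days at CTCF, 3040 (96.4%) lacked day 2, against 47, 34 and 33 that lacked day 0, 4 or 6. Their MBD3 folds had medians of 4.26, 3.84 and 4.35 on days 0, 4 and 6, about the level of the whole lists. Asking for MBD3 on days 0, 4 and 6 only would leave 3782 sites at CTCF in place of 742, an alternative added after seeing the data.

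Sites with MBD3 on all 4 days were not all at CTCF. Of the 901, 742 (82.4%, 79.7 to 84.8) overlapped a CTCF peak, beside 86.3% of all merged MBD3 sites. With peaks of high background left out of all lists, the share among 4-day sites was 97.5%. Among sites with MBD3 on 1, 2 and 3 days the shares were 81.1%, 93.5% and 92.9%. The 159 sites of 4 days without CTCF had MBD3 fold medians of 2.47, 8.84, 6.96 and 8.99, lowest on day 0. Their fragments over the summit ran the other way, at 98.7, 59.6, 38.3 and 43.3 times the level, highest on day 0. Their background, by which the fold is divided, was 37.8, 5.04, 4.06 and 3.62 times the level. Of those 159, 98 (61.6%, 53.6 to 69.2) lay inside an annotated pseudogene, against 10 of the 742 at CTCF (1.35%, 0.648 to 2.46).

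CTCF folds at the sites were higher than over the CTCF lists as a whole. A CTCF peak was present on all 4 days at 702 of the 742, on 3 days at 14, on 2 days at 7 and on 1 day at 19. The rule asked for 1 day only. The share with CTCF on every day was 94.6%, beside 98.3% (3100 sites) and 95.2% (3904 sites) of the MBD3 sites of 3 and 2 days at CTCF. On day 0, 733 sites (98.8%) had CTCF, and on days 2, 4 and 6 there were 716, 718 and 716. The median CTCF fold over the same days was 18.1, 10.1, 17.9 and 19.2, with ranges of 1.16 to 60.6, 1.40 to 32.8, 1.35 to 56.4 and 1.18 to 57.6. Over the whole CTCF lists the medians were 6.67, 5.46, 8.56 and 8.91.

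CTCF fold was higher the more days MBD3 was present. Among the CTCF sites found on all 4 days, the day 0 medians were 7.76, 10.3, 12.0, 13.9 and 18.4 where MBD3 had a peak on 0, 1, 2, 3 and 4 days. On day 6 they were 8.86, 11.8, 13.5, 14.7 and 19.3. The step from 3 days to 4 was also present on day 2, where the medians were 6.72 and 10.1. The number of sites behind these medians fell from 11396 with no MBD3 to 702 with MBD3 on every day.

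The 2 proteins rose and fell together from site to site. Over the 702 sites with CTCF on every day, the Spearman correlation between MBD3 fold and CTCF fold was 0.767, 0.769, 0.819 and 0.878 on days 0, 2, 4 and 6. These are descriptions across sites, which are not replicates, and both folds of a day share the local background of the place. Over the 426 of these sites without high background on any day the correlations were 0.758, 0.759, 0.801 and 0.865. MBD3 folds of different days correlated at 0.711 to 0.851 and CTCF folds at 0.522 to 0.766.

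MBD3 reached a little under 0.5 of the CTCF fold at the same summit. The median ratio of MBD3 to CTCF fold was 0.477, 0.427, 0.436 and 0.464 on days 0, 2, 4 and 6. At the sites of 3 days the ratios on days 0, 4 and 6 were 0.310, 0.282 and 0.299. On day 2 it was 0.438 over the 96 of those sites with both proteins, about that of the 742 sites. The libraries of the 2 antibodies differ in depth and enrichment, so the ratio compares sites within a day and not the amounts of protein.

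**Figure D2:**
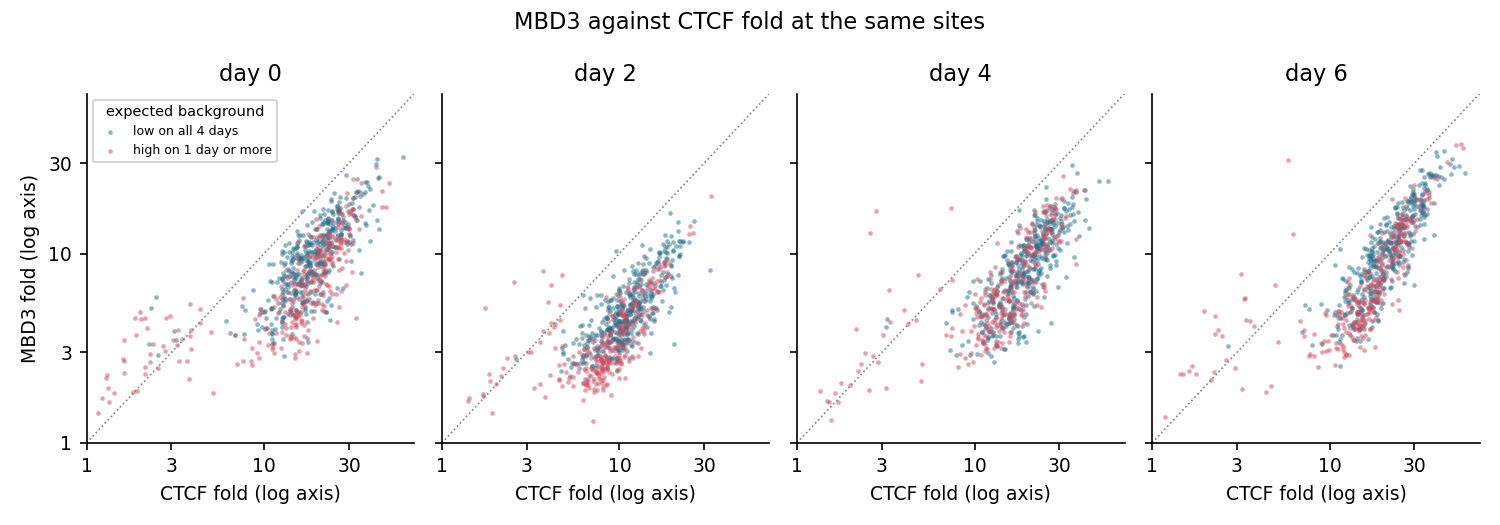
MBD3 fold (vertical) against CTCF fold (horizontal) at each of the 742 sites that has both on a day, both axes log, 1 panel a day; the dotted line marks equal folds and red points are sites with a background over 10 times the level in an MBD3 list on 1 day or more. Most sites form 1 band below the line with Spearman correlations of 0.767 to 0.878, and a small group of low CTCF fold lies near or above the line.

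The summits of both proteins fell on the same few base pairs. The median distance from the MBD3 summit to the summit of the CTCF peak was 7, 8, 7 and 6 bp on days 0, 2, 4 and 6. The distance was at most 20 bp at 85.4%, 81.3%, 84.3% and 88.7% of the sites and at most 50 bp at 93.3%, 93.2%, 94.4% and 94.7%. At MBD3 sites of 3 days the share within 20 bp was 79.3%, 79.0% and 86.5% on days 0, 4 and 6, and at sites of 1 day it was 54.9%, 59.3% and 74.9%. Within 50 bp the order was the other way, with 95.4%, 96.8% and 97.8% of the sites of 3 days on those days. The 4 MBD3 summits of a site lay within a median span of 16.0 bp (quartiles 10.0 and 30.0).

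**Figure D3:**
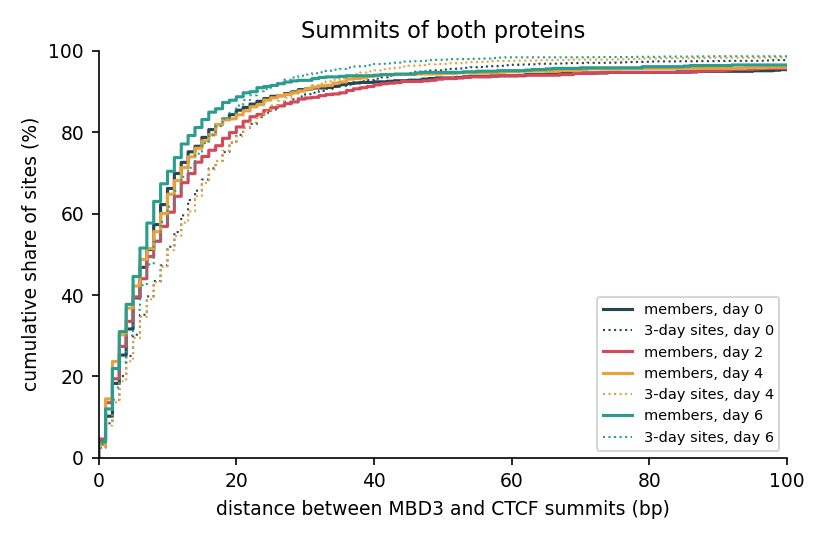
Cumulative share of sites (vertical, %) against the distance between the MBD3 and CTCF summits (horizontal, bp, up to 100) for the 742 sites (solid, days 0, 2, 4 and 6) and the sites of 3 days at CTCF (dotted, days 0, 4 and 6). The solid lines pass 81.3% to 88.7% at 20 bp, and the dotted lines pass 79.0% to 86.5%.

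MBD3 peaks were wider than at the sites of 3 days. Median MBD3 widths at the 742 sites were 324, 231, 328 and 325 bp, against 234, 224 and 226 bp at sites of 3 days on days 0, 4 and 6. On day 2 the sites of 3 days had 204 bp and those of 1 day 229 bp. The 4-day sites without CTCF had 223, 388, 334 and 362 bp. The median number of MBD3 fragments over the summit was 82.0, 69.0, 102 and 95, and the median number of CTCF fragments was 329, 200, 232 and 290. These are fragments pooled over 3 replicates.

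The 10 sites that held the highest rank through all 4 MBD3 lists, taken by their lowest percentile, lay over 2 kb from any end of a protein-coding gene, except for the one inside Cdsn. The first lay inside Ctif, which encodes a translation initiation factor of newly made mRNA, at chr18:75599729-75600261. Its MBD3 folds were 23.5, 20.1, 25.8 and 37.7 and its CTCF folds 35.1, 32.8, 31.5 and 55.0. The background of the Ctif site was high on 1 day. The next, inside the vesicle trafficking gene Sec22c at chr9:121697519-121698048, had MBD3 folds of 14.1, 16.5, 22.6 and 23.1. Its MBD3 and CTCF summits were 131, 144 and 149 bp apart on days 0, 2 and 4 and 9 bp apart on day 6, against at most 21 bp on any day at the other 9 sites. A site in no annotated gene, 140036 bp from the LIM domain gene Lmcd1 at chr6:112133567-112133901, was the steadiest of the 10. Its MBD3 folds were 17.0, 14.8, 13.9 and 18.4, on a background of 1.29, 1.00, 1.83 and 2.17 times the level.

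All 10 sites had their highest MBD3 fold on day 6. They were picked by their MBD3 folds, so this is a description. Day 6 was also the highest at 317 of all 742 sites (42.7%), and its MBD3 list had the highest median fold, 4.58. Inside Fcgr1, the gene of a high-affinity antibody receptor (chr3:96287325-96287746), MBD3 folds were 12.5, 14.7, 19.4 and 34.3 and CTCF folds 15.5, 21.4, 25.2 and 39.4. Inside the noncoding gene Gm16230, 2176 bp from the nuclear envelope gene Nemp1, the MBD3 folds were 15.2, 14.0, 17.9 and 37.2. Inside the sorting nexin gene Snx29 they were 15.8, 12.9, 21.8 and 35.9. In each of these 3 the CTCF fold was also highest on day 6. Inside Lrrc28, a leucine-rich repeat gene, MBD3 went from 8.62 on day 0 to 12.3, 14.2 and 28.7, and CTCF from 17.2 to 19.4, 34.6 and 42.0.

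The remaining 3 sites of the 10 spanned less over the days than these 4. The site 2081 bp from Gtf3c5, which encodes a subunit of the RNA polymerase III factor TFIIIC, had MBD3 folds of 24.7, 13.2, 16.7 and 25.3. The site inside the noncoding gene Gm41058 had 11.5, 12.7, 18.1 and 22.9. The site inside Cdsn, which encodes a skin adhesion protein, had 17.1, 12.5, 17.1 and 22.0, and its summits were 1, 7, 4 and 1 bp from those of CTCF. Day 2 was the lowest of the 4 days at 5 of the 10 sites for MBD3, namely those of Ctif, Gm16230, Gtf3c5, Snx29 and Cdsn. This count follows from the way the 10 were taken, since a high rank on day 2 was required of them.

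**Figure D4:**
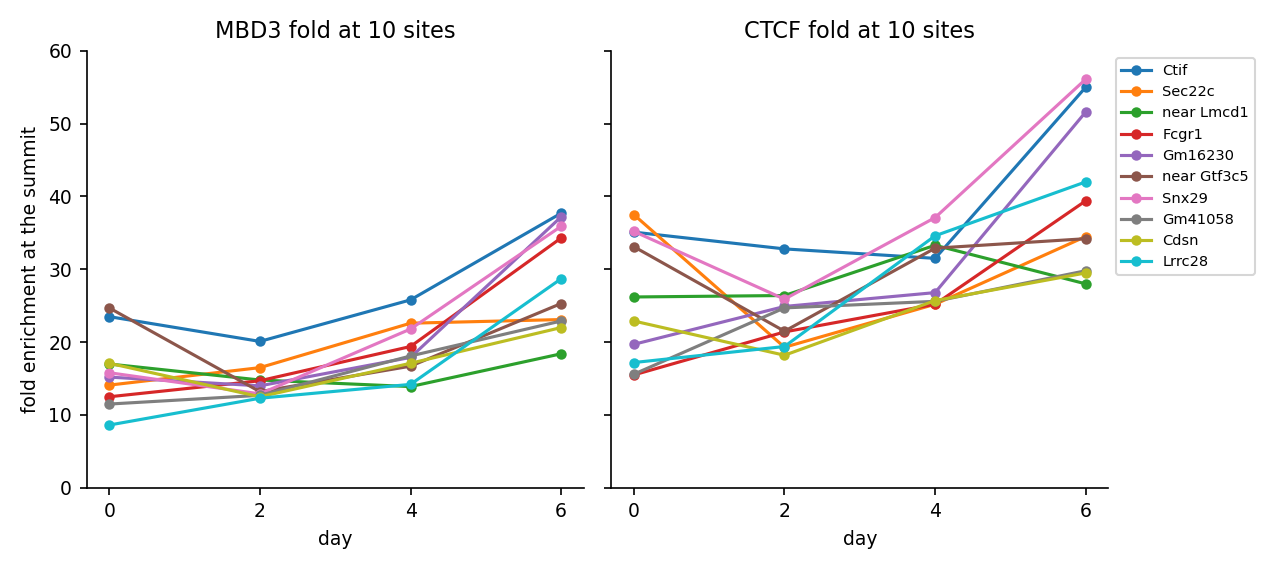
MBD3 fold (left) and CTCF fold (right) on days 0, 2, 4 and 6 at the 10 sites with the highest lowest rank, 1 line per site named by the gene it lies in or near. MBD3 at Ctif reaches 37.7, at Gm16230 37.2 and at Snx29 35.9 on day 6, and CTCF at the same 3 sites reaches 55.0, 51.6 and 56.1.

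At the other end of the rule stood sites with very high background. At chr8:19784430-19784994, 31023 bp from 4930467E23Rik, the MBD3 folds were 2.98, 1.31, 3.40 and 4.62 on backgrounds of 169, 278, 179 and 191 times the level. At chr14:19418574-19418904 they were 1.44, 1.66, 1.67 and 2.3, with 2030 fragments over the summit on day 0. At chr1:24611593-24612054 they were 1.72, 3.16, 1.32 and 1.36. These 3 sites, the lowest in rank, had CTCF on all 4 days, with CTCF folds as low as 1.16 to 1.48 at the second.

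Close to the rule but outside it were sites that lacked 1 MBD3 list or a CTCF overlap. At chr2:101472832-101473147, 87811 bp from Iftap, MBD3 had folds of 10.9, 16.0 and 17.5 on days 0, 4 and 6 and no peak on day 2, while CTCF had 18.5, 10.6, 35.4 and 34.8. The site at chr7:62400137-62400499 inside the noncoding gene Gm32061 had MBD3 folds of 9.98, 11.5 and 11.5 and also lacked day 2. The pseudogene Gm8806 on chromosome X lacked day 0, with MBD3 folds of 38.9, 25 and 37.5 and a CTCF fold of 3.83 on day 6 alone. The proteasome gene Psmd3 carried MBD3 on all 4 days, with folds of 3.92, 8.35, 6.70 and 2.05, and its nearest CTCF peak was 2 bp away. At the transcription elongation kinase gene Cdk9 the gap to CTCF was 332 bp, and at the pseudogene Rnps1-ps it was 305 bp.

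Where CTCF was missing on some days, the MBD3 fold was lower on days 0, 4 and 6 and about the same on day 2. The 40 sites with CTCF on fewer than 4 days had MBD3 fold medians of 3.26, 4.09, 4.06 and 3.66, against 8.60, 4.17, 7.37 and 8.63 at the other 702. Their MBD3 fragments over the summit were 77.5, 72.0, 44.6 and 49.3 times the level, against 53.6, 30.7, 52.8 and 69.5, so higher on days 0 and 2 and lower on days 4 and 6. Their background was 23.8, 10.2, 7.72 and 11.6 times the level, against 6.13, 7.24, 6.70 and 7.54. They had CTCF medians of 2.14, 2.60, 2.67 and 2.3 on the days when it was present. The ratio of MBD3 to CTCF fold was above 1 there, with medians of 1.46, 1.05, 1.30 and 1.49. Summits were 33.0, 25.5, 33.5 and 136 bp apart, farther than at the other sites. The CTCF values rest on 31, 14, 16 and 14 sites.

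Examples of these 40 were found at gene ends and away from genes. At Agps, which encodes an enzyme of ether lipid synthesis, MBD3 folds were 4.89, 6.53, 2.93 and 3.82, and CTCF had a fold of 2.00 on day 0 alone. At the histone gene H2ac4 MBD3 had 5.79, 3.46, 4.34 and 3.40, and CTCF had 7.60, 3.34 and 5.08 on days 0, 4 and 6. Inside Bbx, an HMG box gene, MBD3 had 4.67, 2.21, 12.8 and 4.11 against CTCF folds of 2.94 and 2.57 on days 0 and 4. Inside the noncoding gene Gm46614, MBD3 had 5.86, 2.79, 4.26 and 3.13 and CTCF 2.47 on day 0 alone. A wide site of 1517 bp at chr8:52836223-52837739 had MBD3 folds of 5.14, 1.97, 2.38 and 2.56 and a CTCF fold of 2.3 on day 0.

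Of the 3 highest ratios of MBD3 to CTCF, 2 lay on pseudogenes and the third was that of the site inside Bbx. Their medians over the days were 6.05 at Gm8666, 3.84 at Gm6560 and 3.28 at Bbx. At Gm8666 on chromosome X the MBD3 folds were 3.85, 22.7, 16.8 and 14.9 and CTCF had 2.77 on day 4 alone. At Gm6560 on chromosome 5 MBD3 had 1.81, 32.1, 17.4 and 31.0, and CTCF had 7.39 and 5.82 on days 4 and 6 with summits 1120 and 812 bp away. Both had a much higher background on day 0 than later, at 65.2 and 128 times the level against 6.77 and 2.68 on day 2. Pseudogenes can share reads with their parent gene, which was not tested.

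The lowest ratios lay at strong CTCF sites, 2 of them beside genes. At a site 13 bp from an end of Vps37d, a sorting complex gene, MBD3 had 2.97, 2.21, 4.30 and 4.60 and CTCF 17.4, 10.8, 19 and 18.3. At Ptpru, a receptor phosphatase gene, MBD3 had 4.35, 1.79, 4.63 and 3.09 and CTCF 25.7, 8.93, 15.8 and 15.7. At a site 28476 bp from the muscarinic receptor gene Chrm3, MBD3 had 6.57, 3.32, 3.65 and 12.5 and CTCF 27.7, 20.4, 19 and 38.7. The median ratios at these 3 sites were 0.216, 0.199 and 0.214.

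High background was frequent among the 742 sites. It was high in an MBD3 list on at least 1 day at 310 of them (41.8%), on all 4 days at 111 (15.0%) and on no day at 432 (58.2%). By day, 24.0%, 33.4%, 25.6% and 31.8% of the sites had it, against 9.43%, 22.9%, 11.5% and 13.1% of the peaks of the MBD3 lists. Sites without it had MBD3 fold medians of 9.23, 4.69, 8.12 and 9.81, and sites with it had 6.23, 3.21, 5.96 and 5.85. The fold is divided by the background that splits these sites, so lower folds are built into the second group. Its fragments over the summit were higher, at 79.5, 45.9, 74.1 and 87.2 times the level, against 45.0, 24.3, 41.5 and 53.9. Day 2 was the lowest in both on either scale.

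Near an end of a protein-coding gene, meaning within 1 kb of the first or last annotated base, lay 167 of the 742 sites (22.5%, 19.5 to 25.7). The share was 21.0%, 15.4% and 13.6% for MBD3 sites of 3, 2 and 1 days at CTCF. Among CTCF sites of all 4 days it was 7.56% (7.08 to 8.06) where MBD3 had no peak on any day and 21.9% (18.9 to 25.2) where it had a peak on every day. Among those of these CTCF sites with a day 0 CTCF fold of 13.0 or more, the 25% with the highest fold, the shares were 6.35% (4.85 to 8.15) and 22.6% (19.3 to 26.2).

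The background moved with nearness to genes. Of the 432 sites without high MBD3 background, 33 (7.64%, 5.32 to 10.6) were near a gene end, and of the 310 with it, 134 (43.2%, 37.6 to 48.9). Judged by the background in the CTCF lists, which exists also at sites that never had MBD3, the share of 4-day CTCF sites with high background went from 3.19% to 7.06%, 15.7%, 35.7% and 40.6% with 0, 1, 2, 3 and 4 days of MBD3. Among the sites of low CTCF background the shares near a gene end were 6.04%, 7.58%, 8.86%, 9.79% and 7.91%. Among those of high background they were 53.7%, 47.7%, 46.0%, 41.2% and 42.5%. Sites with MBD3 on every day thus stood close to those with none in the first class and below them in the second, while over both classes the share went from 7.56% to 21.9%.

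**Figure D5:**
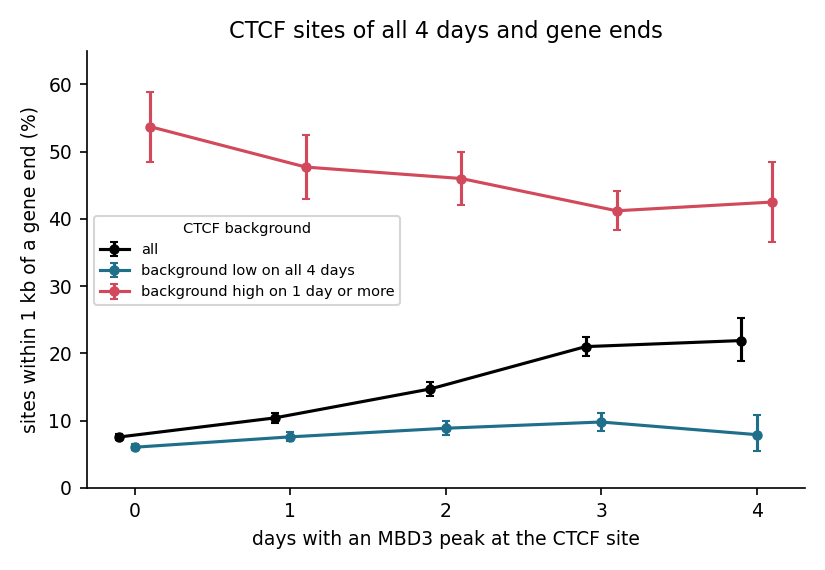
Share of 4-day CTCF sites within 1 kb of an end of a protein-coding gene (vertical, %) by the number of days with an MBD3 peak (horizontal), with exact 95% intervals as bars: all sites in black, sites of low CTCF background on all 4 days in blue, sites of high CTCF background on 1 day or more in red. The black points rise from 7.56% to 21.9%, the blue points stay between 6.04% and 9.79%, and the red points lie between 53.7% and 41.2%, highest where MBD3 has no peak.

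The sites near gene ends had lower MBD3 folds and more MBD3 fragments. Their fold medians were 6.79, 3.40, 6.31 and 5.73 on days 0, 2, 4 and 6, against 8.62, 4.34, 7.48 and 9.22 at the other 575 sites. Their fragments over the summit were 66.2, 42.7, 61.1 and 70.2 times the level, against 52.3, 28.9, 50.8 and 66.7, on a day 0 background of 9.04 against 5.49 times the level. CTCF fold medians were close on day 0, at 18.0 and 18.1, and 17.0 against 19.9 on day 6. On day 0 the CTCF fragments were 161 against 104 times the level. Of all 742 sites, 333 (44.9%, 41.3 to 48.5) lay inside a protein-coding gene and 333 lay in no annotated gene of any kind. The gene table gives outer ends only, so exons, introns and UTRs were not told apart.

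Promoters under the sites were rich in the CTCF motif. The 742 sites overlapped 127 RefSeq promoter windows of 120 genes, each of 300 bases from 250 before to 50 after a start, through 111 sites. Of the 127 windows, 37 (29.1%, 21.4 to 37.9) held this motif core on either strand, beside 1126 of all 32851 windows (3.43%). Under CTCF sites of 4 days that never had MBD3 the share was 17.4% (13.8 to 21.4), and under MBD3 sites of 3 days at CTCF 28.4% (24.4 to 32.7). Counting only windows that hold the summit itself, a choice made after seeing the data, the shares were 38.2%, 23% and 35.3%. A match is a description of the letters and not a measured binding site.

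In most of the 35 sites with such a window the match lay beside the summit, while at Gm46266 and Zc3h15 it lay outside the site. The nearest match was within 50 bp of the MBD3 summit at 27 sites and within 20 bp at 12, with a median distance of 29.0 bp, and its median distance from the CTCF summit was 23 bp. It was on the strand of the gene at 24 sites and on the other strand at 11, as at Rapgef1 and at Nipsnap2, respectively, in the sequences above. The 127 windows were also rich in CpG, with a median of 25 CpGs and 64.3% G or C, against 7 and 52.7% over all windows and 18.0 and 60.3% under CTCF sites that never had MBD3. Under MBD3 sites of 3 days at CTCF the medians were 23 and 63.7%, and under the 4-day sites without CTCF 28 and 63.7%.

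The sites reached few genes. They touched 212 of 21887 protein-coding genes (0.969%) within 1 kb of either end, and 6 of the 311 genes in 11 lists for this cell type. No gene was reached among 16 NuRD subunits, 9 DNA methylation enzymes, 22 naive and core pluripotency genes, 10 formative and primed genes or 16 neuroectoderm genes. The same holds for 57 clustered protocadherins, 39 Hox genes and 24 imprinted genes. With 0.969% of all genes reached, lists of this size are too short for an absence to be read as a result. Within 5 kb, Ctcfl and the imprinted gene Peg3 were added, giving 8 genes beside 2.07% of all protein-coding genes. Of 18 genes of the CTCF and cohesin machinery 2 were reached, of 84 ribosomal protein genes 3, and of 18 mesoderm and endoderm genes 1.

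At Ctcf itself a site within the gene, 371 bp from an end (chr8:105636153-105637006), had MBD3 folds of 8.07, 3.23, 5.00 and 4.74 and CTCF folds of 18.1, 7.44, 11.9 and 9.59. At Stag2, which encodes a cohesin subunit on chromosome X, a site 74 bp outside the gene had MBD3 folds of 15.0, 5.62, 11.3 and 8.30. Both were highest on day 0 and lowest on day 2. The background at Ctcf was high on 3 days and at Stag2 on 0 days.

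Ribosomal protein genes gave 3 unlike sites. At Rpl22 (chr4:152332927-152333342) MBD3 folds were 15.4, 11.7, 16.0 and 13.0 and CTCF folds 23, 18.5, 21.5 and 20.1, one of the steadiest patterns among the named sites. At Rpl8 MBD3 had 2.70, 9.43, 8.53 and 15.0, and CTCF had 1.63 on day 0 alone. The MBD3 background at Rpl8 was 20.9, 5.04, 3.25 and 3.77 times the level, with 87, 112, 61 and 94 fragments over the summit. Its low fold on day 0 thus went with a high background and not with few fragments. At Rps29 MBD3 had 3.70, 3.53, 7.29 and 7.94 and CTCF 6.84, 6.87, 10.3 and 16.3. The MBD3 background at Rps29 was 11.2, 5.26, 5.24 and 7.60 times the level, with 65, 43, 80 and 92 fragments. The collagen gene Col1a1, used as a mesoderm marker, carried a site 823 bp from an end with MBD3 folds of 7.92, 3.08, 6.38 and 9.27. Fibroblasts express Col1a1 too, but a peak does not measure expression.

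The sites were spread over all chromosomes with some unevenness. Chromosome X held 7 of 742 (0.943%, 0.380 to 1.93), against 328 of 11396 CTCF sites of 4 days that never had MBD3 (2.88%, 2.58 to 3.20). At CTCF, MBD3 sites of 3 days had 0.856% (0.565 to 1.24) on X and those of 2 days 1.41% (1.08 to 1.82). Among CTCF sites with a day 0 fold of 13.0 or more, X held 1.03% (0.378 to 2.22) of the sites with MBD3 on every day and 4.01% (2.83 to 5.51) of those with none. Chromosome 8 held 62 sites (8.36%, 6.47 to 10.6) against 5.22% (4.82 to 5.65) of the CTCF sites without MBD3 and 8.08% (7.16 to 9.09) of the MBD3 sites of 3 days at CTCF. Chromosome 2 held 73 sites (9.84%, 7.79 to 12.2), against 7.30% (6.83 to 7.79) and 7.04%, respectively. Of the sites without high background 5.56% (3.59 to 8.15) lay on chromosome 8, and of those with it 12.3% (8.82 to 16.4).

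No run of sites was denser than 6 within 100 kb, a number reached on chromosomes 4 and 9. The 6 on chromosome 4 lay beside the predicted genes Gm13290, Gm13289, Gm13272, Gm13285, Gm13287 and Gm13288. Their values were nearly equal: day 0 MBD3 folds were 4.74, 5.46, 4.22, 4.51, 4.87 and 4.93 from 170, 172, 178, 175, 182 and 153 fragments. Day 2 folds were 1.86, 1.9, 2.03, 1.69, 1.95 and 2.66. The background was high on all 4 days at each of the 6, at 20.0 to 27.4 times the level on day 0. Near-identical gene copies can share reads, so these 6 may not be independent sites, which was not tested.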

How the data were processed

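The submitters' processing notes name MACS2 2.1.2 and Bowtie2 2.3.4, as well as SAMtools 1.9, bedtools 2.25.0 and FastQC 0.11.7, on the build mm10. The authors deposited 8 peak lists, 1 for each of 2 antibodies and 4 days, whose names pool replicates 1 to 3. In each the deposited fold enrichment is a ratio of fragments to expected background at the summit, with a fragment added to both. The deposited -log10 p and -log10 q are those of the peak caller, with a lowest -log10 q of 1.30 to 1.31, and the deposited score is a rounded form of the latter. The role of the input samples in peak calling is not given in the sources used here.

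Rows with the same interval were counted as 1 peak with the summit of highest -log10 q. A site's value on a day is that of its peak of highest -log10 q. Fragments and background were recovered from fold and p for 100% of the peaks, each within 0.1% of the -log10 p. On 3000 simulated summits the right number was found for 100%. These were made with the formula that the recovery inverts, so they check the arithmetic and not the peak caller's formula. With fold and p mixed up, 21.6% found a match. A list's level is the lowest background shared by 0.5% of its peaks. The overlap code and bedtools 2.31.1 both counted 2555 overlaps on simulated lists. Sites were named by rank: 10 highest and 3 lowest by their lowest percentile over the days, 3 each of the nearest outside in days and in distance to CTCF, 5 with fewer CTCF days, 3 at each end of the ratio, all at genes of the 11 lists, 4 promoters with the motif, and the densest 100 kb. The sites, lists, motif and rules were chosen with earlier results of these data known. Genes came from RefSeq on GRCm38.p6. The scripts ran under Python 3.11.15 with scipy 1.17.1, pandas 2.3.3, numpy 2.4.6 and matplotlib 3.10.9. The alternatives tried were equal numbers of peaks per day, a minimum -log10 q of 10, other definitions of overlap, all chromosomes, a site's mean value, wider windows and leaving out peaks of high background. Depth is known only through the level of each list.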

Additional observations from a re-analysis of the deposited data

How the results depend on the processing

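No paired analysis was possible because the authors called each list on the 3 replicates together, and for the same reason no replicate could be left out. Of 131 values under alternatives for 18 results, 88 stayed within the 95% interval of the reported value (counts: within 1.5 times the reported count) and 43 did not. An overlap of 50% of the shorter peak kept all 742 sites, so its other values equal the reported ones and count among the 88. With equal numbers of peaks per day there were 519 sites, 511 of them with CTCF on all 4 days. The number of sites was 473 at a -log10 q of 10 or more, 432 without peaks of high background and 3782 with MBD3 asked for on days 0, 4 and 6 only. The number with CTCF on all 4 days was 459 at that q and 412 without high background. The share of 4-day MBD3 sites at CTCF was 86.9% with equal numbers of peaks per day and 97.5% without high background.

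The median MBD3 folds on days 0, 2, 4 and 6 were 10.3, 5.05, 9.66 and 11.2 at a -log10 q of 10 or more, 10.0, 4.65, 9.30 and 10.7 with equal numbers of peaks, and 9.23, 4.69, 8.12 and 9.81 without high background. With the MBD3 summits of all days within 100 bp the day 0 median was 8.78. The median CTCF folds were 20.7, 11.2, 20.5 and 22.6 at that q and 20.5, 10.7, 20.3 and 22.2 with equal numbers. Without high background the CTCF medians were 10.9, 19.5 and 20.8 on days 2, 4 and 6. Day 2 was the lowest day for both proteins in each of these 3 settings. The median summit distance on days 2, 4 and 6 was 6.00, 5.00 and 5.00 bp at that q and 6.00, 5.00 and 5.00 bp with equal numbers.

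The share near a gene end was 7.64% without peaks of high background, and the same 7.64% when only sites without high background were kept, an alternative added after seeing the data. It was 44.1% with a window of 5 kb, and 17.0% within 1 kb of a RefSeq start. The share of promoter windows with the motif was 38.2% among windows that hold the summit. Genes of the lists numbered 2 without high background, and 4 at that q, with equal numbers and with MBD3 summits within 100 bp. Definitions by summit distance were not run for the summit distance, which they fix. The main limits are the short MBD3 list of day 2, which set most of the membership, and the pooling of replicates, which leaves counting error as the only error known.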

Other observations

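A site inside Rtl1, an imprinted retrotransposon-derived gene, overlapped the hairpin of Mir432 (chr12:109594636-109595203). The site lay 9565 bp from the nearest end of Rtl1, which is not among the 24 imprinted genes listed. Its MBD3 folds were 10.3, 3.18, 7.69 and 5.34 and its CTCF folds 12.6, 4.73, 12.4 and 11.2 on days 0, 2, 4 and 6, with high background on 0 days. It was named after its values were seen. A second run of 6 sites within 100 kb lay on chromosome 9 from position 3001440, and the next densest run, on chromosome 6, held 4.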
